A study of Mus musculus with 33 samples.

Results

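The cells described here are the biotin-tagged cells of mouse lung and mouse brain after intracardiac injection of tumour cells. They were chosen by label: the 4 lung and the 4 brain samples that were sorted as biotin positive, 8 of the 33 samples of the series. A cell was kept with at least 500 unique molecular identifiers (UMIs, each one counted RNA molecule), at least 200 genes and at most 15% of its UMIs from mitochondrial genes. This left 7342 tagged lung cells and 2206 tagged brain cells, 9548 in all, from a series of 83731 cell barcodes. Both groups received the same route of injection, an overnight labelling with the SAMENT substrate of about 10 h, and dissociation with collagenase A for 45 min at 37 °C; they differed in the organ. In SAMENT an enzyme carried by the tumour cells attaches biotin to cells near them, so the biotin positive sort holds cells tagged in the tumour niche and the biotin negative sort holds cells of the same organ that were left untagged. The biotin negative lung and brain samples, 4 of each with 10584 and 7459 kept cells, served as the background measured the same way. The labels do not give mouse strain, sex, age, the tumour line or the number of animals behind each sample, so the p-values measure the spread between these samples, which may in part be technical.

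Each organ has macrophages of its own. Alveolar macrophages live in the air spaces of the lung, where they take up and break down surfactant lipid; they depend on the cytokine GM-CSF and on the lipid-sensing nuclear receptor PPARγ. Microglia are the macrophages of the brain tissue itself and depend on the receptor CSF1R and on TGF-β, and border-associated macrophages line the meninges, the vessels and the choroid plexus. Neutrophils, monocytes and lymphocytes reach both organs by blood.

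Promoters of 2 genes are shown, 1 high in each organ. Fabp1, a fatty acid-binding protein of the cytosol, had the largest positive difference among the named genes and its levels came almost wholly from alveolar macrophage-like cells. Crybb1, a crystallin gene that microglia express, was among the genes furthest down in lung, and of the genes named for a lung-brain difference that was not the same in tagged and untagged cells it had the most negative value. Each sequence is the RefSeq promoter window of GRCm38.p6, the same assembly as mm10, from 250 bases before to 50 bases after the start of the gene, read 5′ to 3′ on the gene's strand. Capitals mark the nuclear receptor half-site AGGTCA, searched on both strands. Fabp1 is at chr6:71199629-71199928 on the plus strand and Crybb1 at chr5:112255570-112255869 on the plus strand.
Fabp1: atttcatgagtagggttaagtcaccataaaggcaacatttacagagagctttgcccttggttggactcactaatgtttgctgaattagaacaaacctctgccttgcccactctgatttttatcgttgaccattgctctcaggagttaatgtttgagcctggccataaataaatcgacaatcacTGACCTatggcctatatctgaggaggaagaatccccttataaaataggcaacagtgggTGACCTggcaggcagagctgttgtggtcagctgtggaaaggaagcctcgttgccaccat
Crybb1: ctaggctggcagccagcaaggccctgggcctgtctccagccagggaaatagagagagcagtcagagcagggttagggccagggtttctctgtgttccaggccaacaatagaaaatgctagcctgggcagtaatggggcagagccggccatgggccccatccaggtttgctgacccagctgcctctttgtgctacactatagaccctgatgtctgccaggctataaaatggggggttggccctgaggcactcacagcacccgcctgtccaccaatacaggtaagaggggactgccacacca
The Fabp1 window held the half-site 2 times, both in the reverse direction, and the Crybb1 window held none. Across 32851 RefSeq promoter windows of the same length 16.26% held it. It was in 4 of 12 windows of the named genes higher in lung (Fabp1, Htr2c, Plet1 and Ppbp) and in 0 of 11 matched windows of those higher in brain. The letters GAGGAAGT, which the myeloid factor PU.1 binds, were in 3.202% of all windows and in none of the windows of the named genes. A match of letters is a description of the sequence and not a measured binding site.

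The tagged samples held between 1328292 and 24373461 UMIs, and the median kept cell held between 4428 and 9294 UMIs in lung and between 3705 and 5160 in brain. Matrices with the same replicate number listed the same 8 CellPlex tags and shared 0 barcodes over 24 pairs, while those with different numbers shared 77 barcodes over 96 pairs, at most 6 in a pair. The proportions of the other tags were alike within a number (r between 0.992 and 1.00 over the tags) and less so between numbers (r between 0.176 and 0.524 over the 16 pairs that list the same tags). The labels do not say what the number marks or whether it stands for 1 pooled library. RNA shared within a pool was not measured, and its part in low values was not tested.

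By mean share, alveolar macrophage-like cells were the leading class of tagged lung, and border-associated macrophage-like and microglia-like cells those of tagged brain. Single samples departed from this order: neutrophil-like cells outnumbered alveolar macrophage-like cells in lung samples 3 and 4 (42.6% and 38.6% of cells), neutrophil-like cells outnumbered border-associated macrophage-like cells in brain samples 3 and 4 (19.4% and 22.9%), T cell-like cells led in brain sample 3, and microglia-like cells were fewer than neutrophil-like (15.4%) and neutrophil precursor-like cells (18.3%) in brain sample 1. Cells were clustered without labels, and a cluster was named "X-like" from marker lists; 21 of 27 clusters received a name. Because the same genes build the clusters, the shares of cells and the levels of these markers are one observation seen from 2 sides. Alveolar macrophage-like cells numbered 1391, 1944, 455 and 100 in lung samples 1 to 4, which is 45.3%, 81.9%, 37.4% and 14.7% of the kept cells. In brain they numbered 5 of 2206 cells, all in brain sample 2, a share of 0.227% with an exact 95% interval from 0.0736% to 0.528% that covers counting error only. That sample listed the same CellPlex tags as lung sample 2, and a part of this in the 5 cells was not tested. Every lung sample lay above every brain sample. The mean share was 44.8% ± 27.9 in lung and 0.185% ± 0.370 in brain (SD, n = 4 each; exact permutation test, two-sided, p = 0.0286, adjusted p = 0.105 over 11 classes). With 4 against 4 samples 0.0286 is the smallest p the exact test can give.

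Microglia-like cells numbered 18, 25, 70 and 302 in brain samples 1 to 4, or 3.26%, 3.70%, 22.6% and 45.1% of the cells. Brain samples 3 and 4 were thus well above brain samples 1 and 2. In lung 0 of 7342 cells were microglia-like, with an exact 95% interval up to 0.0502% that covers counting error only. The mean share in brain was 18.7% ± 19.8 (SD, n = 4; exact permutation p = 0.0286, adjusted p = 0.105). Border-associated macrophage-like cells ran in a different order, with 195, 539, 43 and 76 cells, or 35.3%, 79.9%, 13.9% and 11.4%. Brain sample 2 was the highest, and it was also 1 of the 2 samples lowest in microglia-like cells. In lung 36 cells fell into that cluster, 0.490% of 7342 (exact 95% interval from 0.344% to 0.678%), and the mean shares were 0.466% ± 0.207 in lung and 35.1% ± 31.7 in brain (exact permutation p = 0.0286, adjusted p = 0.105).

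Neutrophil-like cells were common in both organs, with 25.5% ± 18.2 of tagged lung cells and 15.2% ± 8.68 of tagged brain cells (SD, n = 4 each; exact permutation p = 0.314, adjusted p = 0.432). Neutrophil precursor-like cells, which carry granule genes such as Camp and Ltf, were 101, 2, 4 and 34 in brain and 12, 0, 1 and 3 in lung. Brain samples 1 and 4 held most of them, and lung and brain overlapped (exact permutation p = 0.0857, adjusted p = 0.236). T cell-like cells made up 3.18% ± 2.93 of tagged lung cells and 9.56% ± 12.6 of tagged brain cells (exact permutation p = 0.486, adjusted p = 0.534). The brain mean rested on brain sample 3, in which 88 of 310 cells, 28.4%, were T cell-like, against 2.54%, 2.81% and 4.48% in the other brain samples. Shares of B cell-like, NK cell-like, endothelial-like and both kinds of monocyte-like cells overlapped between the organs, with exact permutation p between 0.114 and 0.771 before adjustment.

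Of the tagged lung cells 812 (11.1% of the cells and 17.9% of the UMIs) fell into a cluster that stays unnamed because too few markers of any list led it. Its leading genes included Pf4, Ppbp and Spp1, and it held 12 tagged brain cells. A further unnamed cluster, led by Ccl17, Cd209a and genes of MHC class II, held 181 tagged lung and 52 tagged brain cells.

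**Figure D1:**
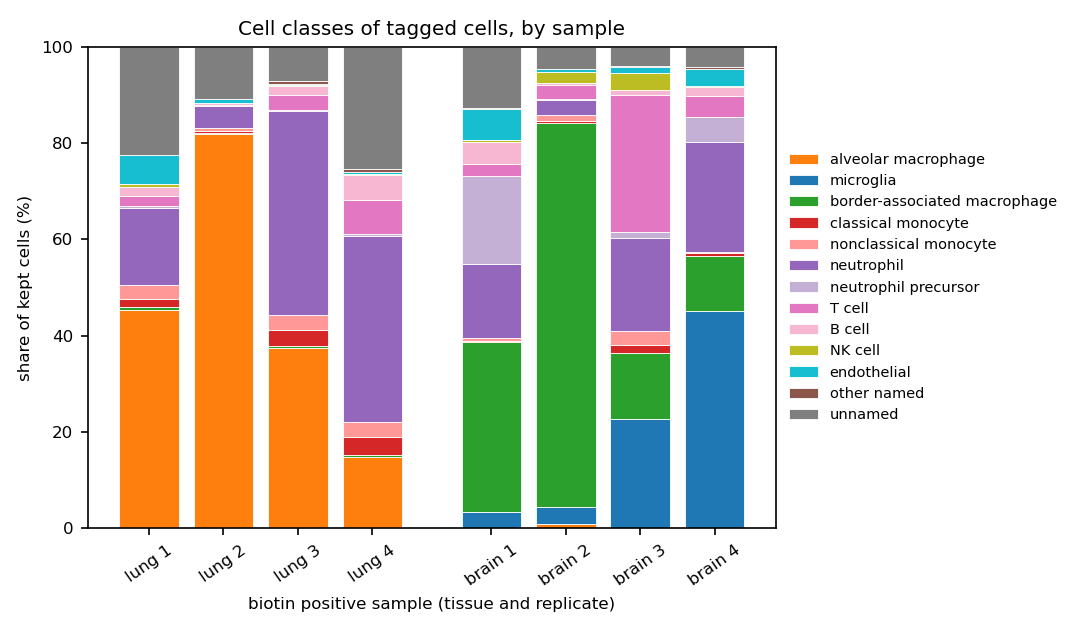
Stacked bars give the share of kept cells (%, from 0 to 100) in each named cell class for the 4 tagged lung and the 4 tagged brain samples, with unnamed clusters in grey. Alveolar macrophage-like cells reach 81.9% in lung sample 2, border-associated macrophage-like cells 79.9% in brain sample 2 and microglia-like cells 45.1% in brain sample 4.

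Summed over all kept cells of a sample, 1067 of 11158 tested genes differed between tagged lung and tagged brain, which is 9.56% of them (edgeR quasi-likelihood test, Benjamini-Hochberg adjusted p under 0.05). Of these, 614 were higher in lung (5.5%) and 453 lower (4.06%), and the 2 groups of samples did not overlap for 18% of all tested genes, with 25.9% at an unadjusted p under 0.05. The median log2 difference over all genes was -0.04. A level summed over a sample mixes which cells are present with what each cell makes, so for some genes the share of UMIs by cell class is given. For the other genes the part of the cell make-up was not tested. Levels are CPM, a gene's counts scaled to the sample's total after TMM scaling, and all differences are log2 of lung over brain with their standard error (SE). The count of called genes fell to 583 without lung sample 3, to 593 without brain sample 4 and to 647 without lung sample 2, and it was 572 with a limit of 5% mitochondrial UMIs. It was higher with DESeq2, at 1908, and with all 16 samples in the fit, at 1715. No gene called under both the main and another setting changed sign.

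Among called genes with at least 50 CPM in the higher organ and no overlap between samples, the 12 furthest up in lung were mostly genes of alveolar macrophages. Fabp1 (ENSMUSG00000054422, chr6:71199827-71205023, plus strand) was at 201, 167, 344 and 125 CPM in lung samples 1 to 4 and at 0.882, 1.504, 0.791 and 0.223 CPM in brain. Every lung sample was far above every brain sample in this gene. Its difference was 7.97 ± 0.54 (SE; edgeR adjusted p = 0.00153), and 99.0% of its lung UMIs came from alveolar macrophage-like cells. Ear1, a ribonuclease of the eosinophil-associated family, was at 545, 779, 1038 and 341 CPM in lung and at 2.43, 18.9, 5.54 and 0 CPM in brain. The brain value was highest in sample 2, the one brain sample with alveolar macrophage-like cells, and the difference was 6.67 ± 1.10 (edgeR adjusted p = 0.00787). Ear1 has close copies in the genome, Ear2 among them, so its reads may be shared with them.

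The same holds for the source of the next genes. Of the lung UMIs of Krt79, a keratin, 99.0% came from alveolar macrophage-like cells, as did 98.9% of those of Cidec, a lipid droplet protein, 98.5% of those of Plet1 and 95.4% of those of Atp6v0d2, a subunit of the proton pump of lysosomes. Their differences were 6.43, 6.36, 5.96 and 5.99, with edgeR adjusted p between 0.00366 and 0.00756. Htr2c, a serotonin receptor, Acaa1b, a peroxisomal thiolase with a near-identical copy, and Lepr, the leptin receptor, differed by 6.42, 5.65 and 5.62. The naming rule required that the lowest lung sample lay above the highest brain sample, so this holds for all 12.

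The other lung genes had a second source, the unnamed cluster with Pf4 among its leading genes. Ppbp, a platelet chemokine, was at 255.8, 39.5, 15.8 and 75.1 CPM in lung and at 1.76, 0.602, 0 and 0.446 CPM in brain (difference 6.80 ± 1.09, edgeR adjusted p = 0.00709). Lung sample 1 was the highest, the groups did not overlap, and 98.6% of its lung UMIs came from this cluster. Ctsk, the collagen-degrading protease cathepsin K, was at 138, 259, 175 and 528 CPM in lung and at 0.441, 11.1, 3.17 and 0.669 CPM in brain (difference 6.20 ± 0.97, edgeR adjusted p = 0.00687). Lung sample 4, which had the fewest alveolar macrophage-like cells, was the highest. Its lung UMIs came to 73.5% from alveolar macrophage-like cells and to 26.1% from the unnamed cluster.

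By the same rule, the 12 genes furthest down in lung belonged to microglia, to border-associated macrophages and to the vessel wall. Crybb1 (ENSMUSG00000029343, chr5:112255815-112269585, plus strand) was at 0.197, 0.0384, 0.163 and 0.483 CPM in lung and at 13.9, 26.2, 44.3 and 146.9 CPM in brain. Its brain values followed the share of microglia-like cells, lowest in sample 1 and highest in sample 4, and 89.2% of its brain UMIs came from that class (difference -8.43 ± 1.03, edgeR adjusted p = 0.00366). Tmem119, a membrane protein that marks microglia, was at 6.17, 2.19, 1.14 and 3.62 CPM in lung and at 27.6, 27.4, 170.2 and 253.8 CPM in brain. Brain samples 3 and 4 stood above brain samples 1 and 2, all above lung, with a difference of -5.13 ± 0.91 (edgeR adjusted p = 0.0101). Gpr34, a receptor for lysophosphatidylserine, was at 5.35, 3.92, 3.26 and 3.62 CPM in lung and at 51.2, 73.1, 313 and 549 CPM in brain (difference -5.90 ± 0.82, edgeR adjusted p = 0.00484). Fcrls, an Fc receptor-like gene of brain macrophages, was more even among the brain samples, at 102, 175, 214 and 263 CPM against 4.76, 2.11, 0.814 and 6.77 CPM in lung (difference -5.74 ± 0.62, edgeR adjusted p = 0.00366). Its brain UMIs were divided between microglia-like cells (59.5%) and border-associated macrophage-like cells (38.9%). Siglech, a lectin of microglia and of plasmacytoid dendritic cells, and Olfml3 differed by -5.95 and -4.97, and 86.8% of the brain UMIs of Siglech came from microglia-like cells.

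Border-associated macrophage-like cells gave 85% of the brain UMIs of Cp, the copper-carrying ferroxidase ceruloplasmin, 80.4% of those of Ptgds, prostaglandin D synthase, and 94.7% of those of Ccn1, a matrix protein. Ptgds was at 0.275, 0.461, 0.489 and 0 CPM in lung and at 59.6, 525.1, 6.33 and 34.99 CPM in brain (difference -8.77 ± 1.52, edgeR adjusted p = 0.00922). Brain sample 2 stood far above the others, as it did for Cp and Ccn1. Ccn1 had the weakest support of the 24 named genes (difference -5.86 ± 1.56, edgeR adjusted p = 0.0477), and its call was lost in 7 of 15 other settings, among them without brain sample 2 and without brain sample 4. Slco1a4, an organic anion transporter of brain endothelium (chr6:141805440-141856199, minus strand), had 3 counts over all lung samples and 856 over all brain samples. As a share of UMIs pooled over the samples of each organ the ratio was 1251, with an interval from 427 to 6079 that covers counting error only. Endothelial-like cells gave 99.8% of the brain counts. Apod, a lipid carrier, differed by -7.14 with its brain UMIs from border-associated macrophage-like (44.9%) and endothelial-like (26.2%) cells and from an unnamed mixed cluster (27.7%), and Serpine2, a protease inhibitor, differed by -5.02.

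**Figure D2:**
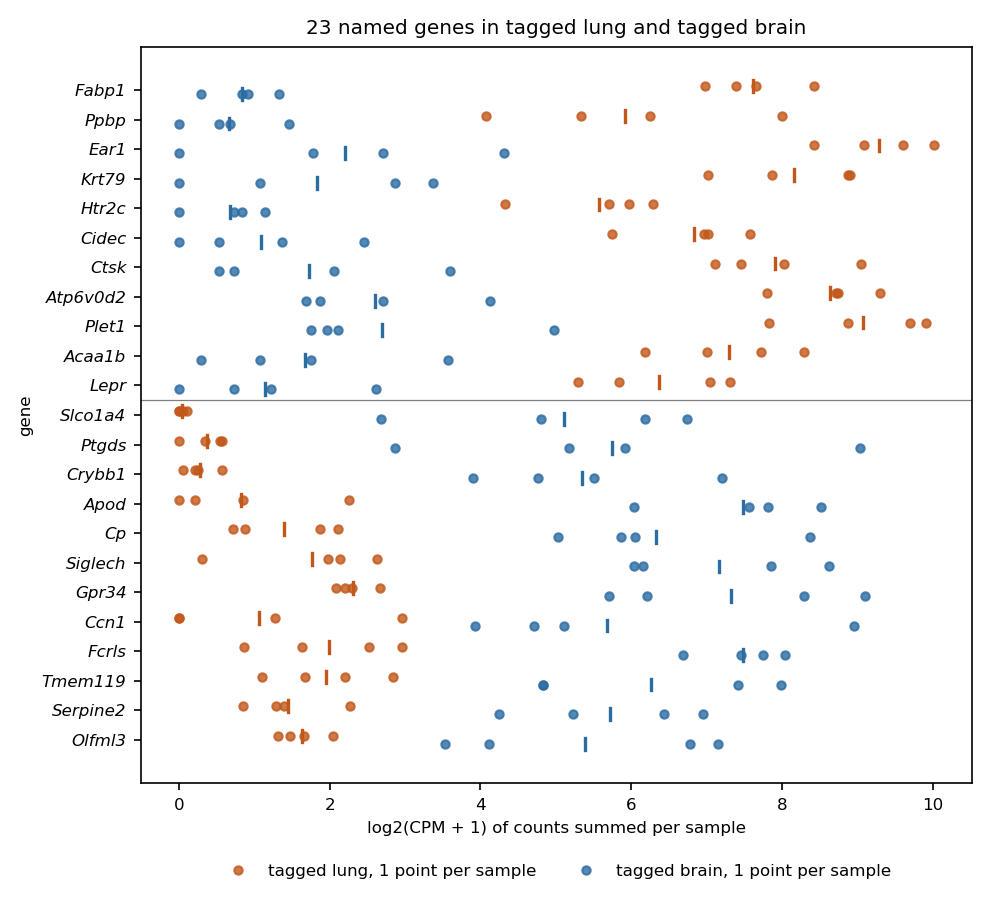
Each point is 1 sample and gives log2(CPM + 1) of the counts summed over its kept cells, for 23 of the 24 named genes in tagged lung (orange) and tagged brain (blue); short bars are the means of the 4 samples. The groups do not overlap for any of the 23, which the naming rule required.

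The marker lists of resident macrophages differed as the named genes did, with counts to be read against 5.5% of all genes higher and 4.06% lower. Of 12 alveolar macrophage markers 11 were higher in lung, with a median log2 difference of 5.22 over the list against -0.04 over all genes. The exception was Marco, a scavenger receptor, at 4.49 with edgeR adjusted p = 0.059. Of 11 tested microglia markers 10 were lower in lung (median -4.97), Sall1, the transcription factor of microglial identity, the furthest at -8.82, and Sparc at -3.88 did not pass. Of 10 general macrophage markers 6 were lower (median -2.89). Of 10 border-associated macrophage markers 2 were lower, Stab1 and Cd209f (-2.75 and -6.08). The other 8 ran from -3.94 for Cd163 to 1.07 for Pf4, and Pf4 had 98.7% of its lung UMIs in the unnamed Pf4 cluster. Neutrophil markers gave 0 calls of 12 (median 0.24), T cell markers 0 of 10 (median -1.34) and endothelial markers 0 of 11 (median -0.79). Other lists did have calls: 2 of 8 nonclassical monocyte markers, Ace and Treml4, and both tested platelet markers, Ppbp and Clec1b, were higher in lung. So was 1 marker each of the B cell, plasma cell, lung epithelium, astrocyte and keratin-positive epithelium lists. Lower in lung was 1 marker each of the plasma cell, plasmacytoid dendritic cell and fibroblast lists. The lung epithelium call was lost without brain sample 2, 3 or 4, and the fibroblast call without brain sample 4 or lung sample 1, 2 or 3. Of 10 neutrophil precursor markers 2 were lower, Camp and Ltf (median -3.29), and of 6 stem or progenitor markers 2 were lower, Adgrg1 and Hlf (median -1.46). The 2 precursor calls fell to 0 without brain sample 1, without brain sample 4 and without any 1 of the lung samples, the nonclassical monocyte count fell to 1 without lung sample 3 or any 1 of the brain samples, and the border-associated macrophage count fell to 1 without any 1 of the lung samples. Without lung sample 1 the T cell and endothelial lists each had 1 lower gene.

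In the labelled brain tissue the defining microglia markers were thus present in the tagged cells but scarce in the untagged ones. The 12 microglia markers summed to between 854 and 6142 CPM in tagged brain, between 140 and 283 CPM in untagged brain and between 129 and 235 CPM in tagged lung. The alveolar macrophage markers summed to between 5499 and 25240 CPM in tagged lung and between 1851 and 3553 CPM in untagged lung. In brain they summed to between 556 and 3671 CPM in tagged and between 2646 and 5000.0 CPM in untagged cells, so that untagged brain overlapped untagged lung and its highest sample lay just below the lowest tagged lung sample. Fabp1, Ear1, Krt79, Cidec, Atp6v0d2 and Plet1 had means between 0.959 and 5.55 CPM in untagged brain and between 1.92 and 13.2 CPM in untagged lung. These untagged sums thus came mostly from other members of the list. Between 0.0977% and 0.638% of untagged brain cells were microglia-like and between 0.0325% and 0.873% of untagged lung cells alveolar macrophage-like. Markers of neurons summed to at most 25.6 CPM in any tagged sample, and those of lung epithelium were between 97.8 and 376 CPM in lung and between 84.97 and 249 CPM in brain.

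Of the list of lipid handling genes of alveolar macrophages 13 of 20 were higher in lung and 0 lower, with a median log2 difference of 2.71. Its members were chosen for that cell type and overlap with its markers, so the count is not separate from the marker result. Lpl, the lipoprotein lipase that frees fatty acids from triglyceride, was at 1246, 1616, 1407 and 548 CPM in lung and at 28.7, 63.2, 94.2 and 31.9 CPM in brain. Lung sample 4 was the lowest in lung and still well above the highest brain sample (difference 4.48 ± 0.52, edgeR adjusted p = 0.00366). Fabp4, a further fatty acid-binding protein, differed by 4.88 ± 0.70 (edgeR adjusted p = 0.00528), and the list also held Fabp1 and Cidec. The members that did not pass ran from -0.73 for Abca1, a cholesterol exporter, to 4.49 for Marco, and they included Cd36, a fatty acid transporter, at 2.19. Within alveolar macrophage-like cells Lpl was at 2460 ± 303 CPM (SD, n = 4 lung samples), against 172 ± 130 CPM in microglia-like and 17.6 ± 10.1 CPM in border-associated macrophage-like cells (SD, n = 4 brain samples).

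Of the 18 tested nuclear receptors and coregulators 5 were higher in lung and 0 lower (median 0.30), with 2 higher without brain sample 4, 3 higher without lung sample 2 or 3, and 1 lower without lung sample 4. Pparg (chr6:115360951-115490399, plus strand), the receptor that drives the lipid programme of alveolar macrophages, was at 65.4, 82.0, 80.6 and 28.5 CPM in lung and at 2.65, 4.81, 3.96 and 1.11 CPM in brain. Every lung sample was well above brain (difference 4.44 ± 0.50, edgeR adjusted p = 0.00366). Nr1h3, the oxysterol receptor LXRα, differed by 3.41 ± 0.58 (edgeR adjusted p = 0.00871). Vdr, the vitamin D receptor, differed by 3.66, but its call was lost in 7 of 16 settings. Ncoa4, a coactivator that also carries ferritin to the lysosome, differed by 1.90, a call lost with a limit of 5% mitochondrial UMIs and without brain sample 4. Of 15 genes of cholesterol synthesis and uptake 4 were higher, among them Cyp51 at 1.52, Hmgcs1 at 1.51 and Fdft1 at 1.37, with a list median of 0.67. The call of Fdft1 was lost in 8 of 16 settings, and those of Cyp51 and Hmgcs1 with a limit of 5% mitochondrial UMIs.

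The transcription factors divided both ways, 4 of 25 higher and 3 lower (median -0.11), with 2 higher without brain sample 4 or lung sample 1, 2 or 3, and 5 lower without brain sample 1. Beside Pparg and Nr1h3 the higher ones were Bhlhe40, which controls macrophage self-renewal, at 2.27 and Tfec, of the MiT family, at 1.84; these 2 calls were lost in 7 and 6 of 16 settings. Sall1, Maf and Mef2c were lower. Mef2c was at 45.7, 17.8, 37.8 and 62.6 CPM in lung and at 204, 340, 376 and 400.2 CPM in brain, with no overlap (difference -3.01 ± 0.40, edgeR adjusted p = 0.00427). Maf was at 99.6, 84.0, 42.2 and 120.1 CPM in lung and at 521, 1672, 393 and 399 CPM in brain, and brain sample 2 was the highest (difference -3.11 ± 0.57, edgeR adjusted p = 0.0112). Border-associated macrophage-like cells gave 83.5% of its brain UMIs, and the unnamed Pf4 cluster gave 84.0% of its lung UMIs. The factor PU.1, coded by Spi1, differed by 0.38 and did not pass.

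**Figure D3:**
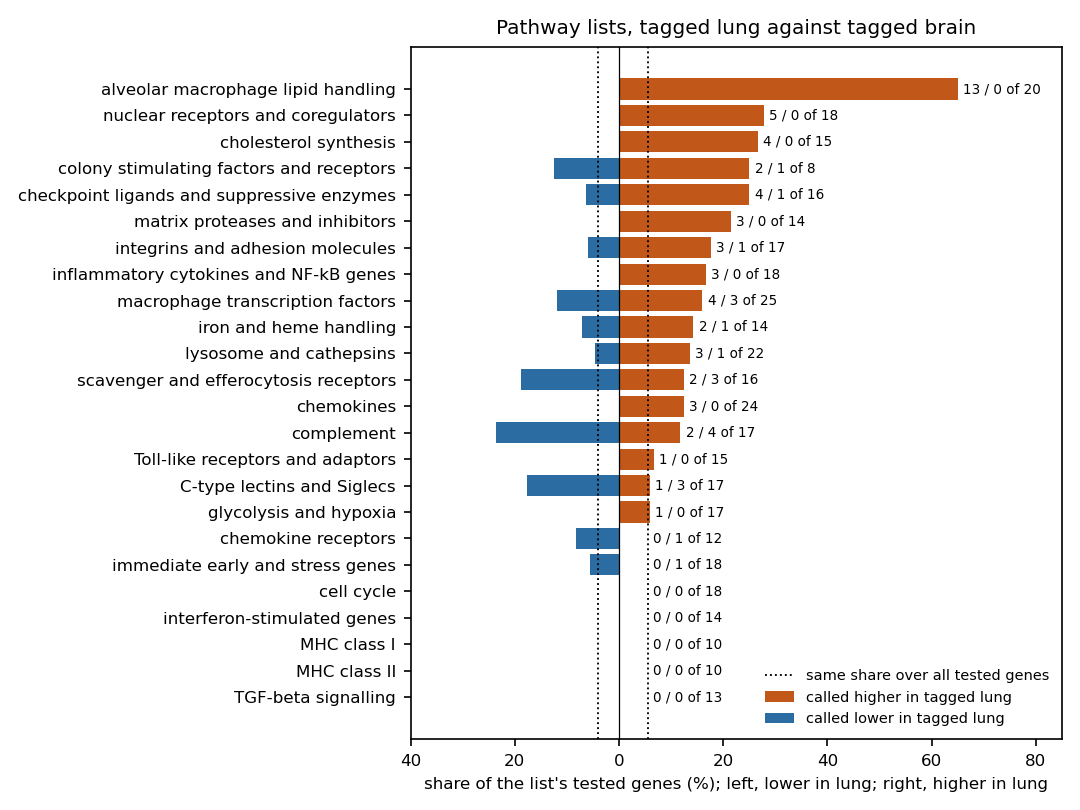
Bars give, for each of the 24 pathway lists, the share of its tested genes (%) called higher (right) and lower (left) in tagged lung, and the numbers beside them are genes higher, genes lower and genes tested. Dotted lines mark the same shares over all tested genes, 5.5% and 4.06%, and the list of alveolar macrophage lipid handling genes has 13 of 20 higher.

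Receptors for the growth factors of macrophages moved in opposite directions. Csf1r, the receptor for CSF1 and IL-34, was at 108, 87.0, 85.7 and 125 CPM in lung and at 343, 1099, 719 and 814 CPM in brain, with no overlap (difference -2.87 ± 0.35, edgeR adjusted p = 0.00366). Csf2rb, the shared signalling chain of the GM-CSF receptor, was at 252, 234, 265 and 229 CPM in lung and at 96.6, 85.4, 133 and 102.5 CPM in brain. Both groups were narrow and apart (difference 1.23 ± 0.18, edgeR adjusted p = 0.00585), and its near-identical copy Csf2rb2 differed by 1.26. By class, Csf1r was at 50.7 ± 6.69 CPM in alveolar macrophage-like cells, at 2184 ± 356 CPM in microglia-like and at 1395 ± 333 CPM in border-associated macrophage-like cells (SD, n = 4 each). Csf2rb was at 285 ± 56.0, 102 ± 48.6 and 65.4 ± 16.6 CPM in these classes, and at 304 ± 13.8 CPM in lung and 256 ± 44.6 CPM in brain neutrophil-like cells. In all 8 tested members of the list 2 were higher and 1 lower (median 0.12).

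Complement showed a similar division, 2 of 17 higher and 4 lower in lung (median 0.06). C1qa, a chain of the first complement component, was at 238, 263, 92.3 and 452 CPM in lung and at 1137, 4676, 2848 and 4033 CPM in brain. Lung sample 3 was the lowest and the groups did not overlap (difference -3.60 ± 0.58, edgeR adjusted p = 0.00722). C1qb and C1qc were lower by a like amount, at -3.19 and -3.49. The brain UMIs of C1qa came in near-equal parts from border-associated macrophage-like (49.7%) and microglia-like cells (49.3%), while in lung 81.5% came from the unnamed Pf4 cluster. Cfb, factor B of the alternative pathway, was higher in lung at 3.89 ± 0.51 (edgeR adjusted p = 0.0040), as was Itgax, the integrin CD11c and a complement receptor chain, at 3.07.

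Among receptors for dying cells and debris 2 of 16 were higher and 3 lower (median 0.18). The count of higher genes was 0 without brain sample 4, 5 without brain sample 2 and 1 without brain sample 1 or 3 or lung sample 1, 2 or 3, and the count of lower genes was 1 without lung sample 1 or 3. Trem2, a lipid receptor of microglia, was lower at -2.28, Stab1 at -2.75 and Gas6, the ligand of the TAM receptors, at -4.83; the calls of Trem2 and Stab1 were lost in 3 and 5 of 16 settings. Axl, a TAM receptor, was higher at 2.42 with edgeR adjusted p = 0.0490, a call that was lost in 9 of 16 settings. Mertk, the other TAM receptor measured, differed by 0.23 and did not pass: it was at 353 ± 28.3 CPM in alveolar macrophage-like, 458 ± 63.1 CPM in microglia-like and 279 ± 54.3 CPM in border-associated macrophage-like cells. Of 17 C-type lectins and Siglecs 1 was higher (4 without brain sample 2), Siglecf at 3.79, a lectin of alveolar macrophages and eosinophils, and 3 were lower, Siglech, Cd209f and Clec10a, the last a call lost in 3 of 16 settings. Of 22 lysosome genes 3 were higher and 1 lower (2 lower without brain sample 1). The higher ones were Ctsk, Lipa, the acid lipase, at 1.66 and Psap, a sphingolipid activator, at 1.26, and the call of Psap was lost in 8 of 16 settings. Apoe, the lipid carrier, was at 39590 ± 7378 CPM in border-associated macrophage-like cells and at 209 ± 202 CPM in alveolar macrophage-like cells.

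Genes that restrain T cells were among those higher in lung: 4 of 16 checkpoint ligands and suppressive enzymes were higher and 1 lower (median 0.93). Cd274, which codes for PD-L1, was at 115, 86.5, 109 and 89.4 CPM in lung and at 8.16, 10.8, 18.2 and 10.7 CPM in brain. The 4 lung samples lay close together, all above brain (difference 3.11 ± 0.26, edgeR adjusted p = 0.00302). In lung 71.4% of its UMIs came from alveolar macrophage-like cells, at 138 ± 32.5 CPM (SD, n = 4), and 17.0% from the unnamed Pf4 cluster. Pdcd1lg2, which codes for PD-L2, differed by 2.77 ± 0.31 (edgeR adjusted p = 0.00366). Cd47, the signal against being engulfed, differed by 1.17, a call lost in 7 of 16 settings. Cd86, a costimulatory ligand, was lower at -1.94, a call lost in 4 of 16 settings, and without brain sample 1 the list had 2 lower genes.

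Of 18 inflammatory genes 3 were higher in lung and 0 lower (median 0.72). Il18, a cytokine released by the inflammasome, was at 283, 341, 234 and 154 CPM in lung and at 10.4, 25.6, 11.9 and 20.5 CPM in brain, with no overlap (difference 3.87 ± 0.38, edgeR adjusted p = 0.00302). Alveolar macrophage-like cells gave 96.3% of its lung UMIs. Il1rn, the antagonist of the IL-1 receptor, differed by 3.03 ± 0.38 (edgeR adjusted p = 0.00368) and Tnfaip2 by 1.75, a call lost in 7 of 16 settings. Il1b and Tnf differed by 1.32 and -1.23 and did not pass. Of 24 chemokines 3 were higher and 0 lower (3 lower without brain sample 1 and 1 without lung sample 1): Ppbp, Ccl6 and Cx3cl1, whose call was lost in 6 of 16 settings. Ccl6 was at 3194, 3742, 3349 and 2927 CPM in lung and at 271, 589, 789 and 435 CPM in brain (difference 2.67 ± 0.33, edgeR adjusted p = 0.00366). Ccl3, Ccl4 and Ccl12, at -2.16, -2.69 and -3.36, did not pass; in Ccl4 brain sample 1 was at 126 CPM and the other brain samples between 1773 and 3263 CPM. Cx3cr1, the fractalkine receptor of microglia, was the 1 lower gene of 12 chemokine receptors, at -4.42.

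Adhesion genes were 3 of 17 higher and 1 lower (2 lower without brain sample 1). Cd44, the hyaluronan receptor, was above brain in every lung sample at 2.71 ± 0.34 (edgeR adjusted p = 0.00366), with 83.0% of its lung UMIs in alveolar macrophage-like cells. Vcam1 was lower at -3.39, a call lost without lung sample 1 and without lung sample 3. Of 14 matrix proteases and inhibitors 3 were higher and 0 lower (2 lower without brain sample 1 and 1 without lung sample 1): Mmp12, the macrophage elastase, at 2.92, Mmp19 at 2.20 and the urokinase receptor Plaur at 1.06. The call of Mmp19 was lost in 6 of 16 settings, that of Mmp12 with equal cell numbers and that of Plaur with all 16 samples in the fit. Mmp12 came to 75.9% from the unnamed Pf4 cluster, as did 64.9% of the lung UMIs of Vegfa, the vessel growth factor, which was the 1 higher gene of 17 for glycolysis and hypoxia (2.27 ± 0.47, edgeR adjusted p = 0.0179). The call of Vegfa was lost without brain sample 4, which left that list with 0 called genes, while 2 were called without any 1 of the other brain samples. Of 14 iron genes Ncoa4 and Fth1, the ferritin heavy chain, were higher, at 1.90 and 1.37, and Cp was lower; 5 were higher without brain sample 2 and 1 without brain sample 4.

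Several programmes had no called gene in either direction. The lists for MHC class II (10 genes, median 0.02), MHC class I (10 genes, 0.17), interferon-stimulated genes (14 genes, 0.05), TGF-β signalling (13 genes, -0.01) and the cell cycle (18 genes, -0.91) each had 0 called genes. In the TGF-β list 1 gene was called without brain sample 2. Immediate early and stress genes had 1 lower gene of 18, a count that was 6 without brain sample 1, 2 without lung sample 4 and 0 without lung sample 3, and the list's median was -0.91. That gene was Jun, at 417, 249.6, 451 and 601 CPM in lung and at 774, 4393, 2193 and 3072 CPM in brain. Brain sample 1 was closest to lung, and the call (-2.60 ± 0.51, edgeR adjusted p = 0.0148) was lost without lung sample 3. Jun was at 332 ± 169 CPM in alveolar macrophage-like, 4114 ± 1800 CPM in microglia-like and 4589 ± 2309 CPM in border-associated macrophage-like cells, and at 260.2 ± 180 CPM in lung and 371 ± 233 CPM in brain neutrophil-like cells.

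The same comparison was made for the untagged cells. Of 12015 tested genes 0 differed between untagged lung and untagged brain (edgeR, Benjamini-Hochberg), against 1528 genes (12.7%) at an unadjusted p under 0.05, 4.74% of genes without overlap between the organs and 440 called by DESeq2. Same-numbered untagged samples deviated together, and with the replicate number as a block 20 genes were called. Leaving out the untagged brain sample 2 gave 241 called genes.

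The tagged difference itself exceeded the untagged one for a set of macrophage genes. In a model of all 16 samples, 273 of 12813 genes (2.13%) had a lung-brain difference that was not the same in tagged as in untagged cells, 164 of them towards lung (1.28%) and 109 towards brain (0.851%). Of the 12 alveolar macrophage markers 4 were called towards lung, with a median of 4.204 over the list, and of 12 microglia markers 4 towards brain, with a median of -3.46; over all genes the median was 0.00. Among the 20 lipid handling genes of alveolar macrophages 6 were called towards lung. The count of 273 genes ran from 84 without the tagged lung sample 2 to 600 without the tagged brain sample 1, and it was 683 with the replicate number as a block and 865 with DESeq2.

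Of the 10 genes named by this test, Crybb1 had the most negative difference between the tagged and the untagged comparison. In untagged samples it was at 1.07, 0.733, 0.993 and 0.666 CPM in lung and at 1.20, 1.09, 1.15 and 1.02 CPM in brain, so that only the tagged brain samples stood out. The difference of the differences was -8.05 ± 1.04 (edgeR adjusted p = 0.00392). Pparg was at 2.77, 3.77, 2.38 and 1.33 CPM in untagged lung and at 1.40, 3.12, 4.04 and 1.12 CPM in untagged brain. Untagged lung and brain overlapped there, and the difference of the differences was 4.28 ± 0.72 (edgeR adjusted p = 0.0146). Siglech at -4.87, Abca9, a lipid transporter, at -4.07, Ear2 at 5.14 and Ly75, the endocytic receptor DEC-205, at 3.88 were called under every other setting that was run. Fabp1 at 6.76, Fabp4 at 3.96, Gpr34 at -4.26 and Rasgrp3, an activator of Ras, at -4.44 each lost the call in 8 to 12 of 21 settings. In untagged lung Fabp1 was at 2.14, 5.44, 0.894 and 0 CPM.

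**Figure D4:**
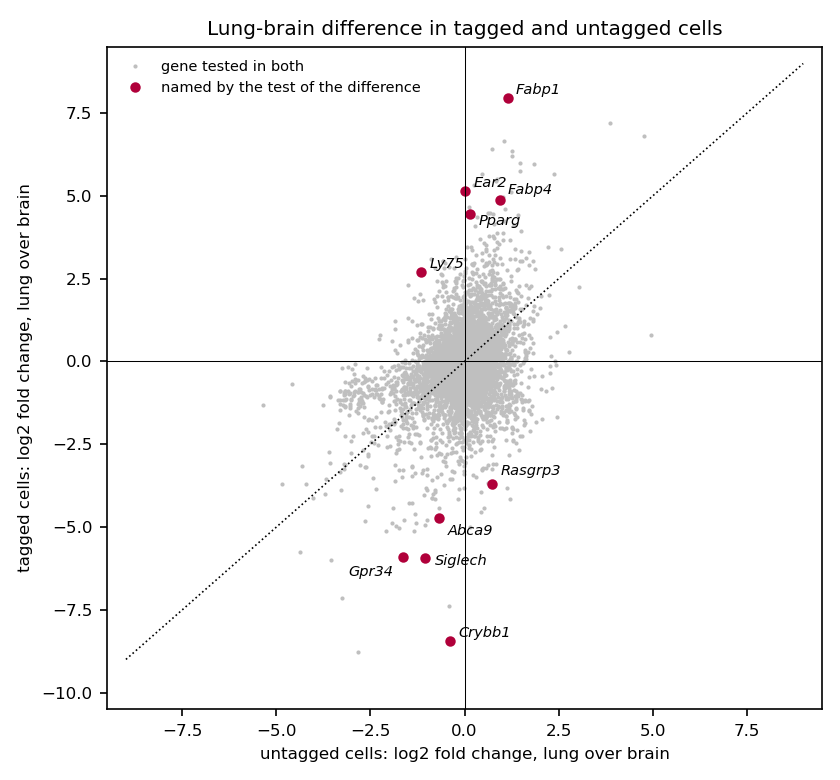
Each grey point is 1 of 10829 genes tested in both comparisons, with the log2 difference of lung over brain in untagged cells (horizontal) and in tagged cells (vertical); the dotted line marks equal differences. The 10 genes named by the test of the difference, in red, lie off the line, with Fabp1 at 7.97 and Crybb1 at -8.43 in tagged cells.

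Within 1 class of cells the organs could be compared for neutrophil-like and T cell-like cells, which had at least 10 cells in at least 3 samples of each organ. Neutrophil-like cells, 1384 in lung and 318 in brain from 3 clusters, gave 0 of 4003 genes (edgeR, Benjamini-Hochberg), with 296 genes (7.39%) at an unadjusted p under 0.05, 3.97% of genes without overlap, 11 called by DESeq2 and 103 called without the filter on low counts. With the replicate number as a block 19 genes were called. The organs filled the 3 clusters differently: 1 led by Retnlg and Prok2 held 624 lung and 72 brain cells, 1 led by Igfbp6 and Il1b held 665 and 142, and 1 with Ly6g and Ifitm6 among its leading genes held 95 and 104. The part of this make-up in the values was not tested. The genes with the lowest p included Fosb, an immediate early factor, at 1.67, Tgm2, a transglutaminase, at 1.72 and Ngp, a granule gene of immature neutrophils, at -1.21; all 3 had edgeR adjusted p = 0.139. In data simulated on these samples the same test recovered 47% of changes of 1 on the log2 scale and 100% of changes of 3. The changes were set only in genes with higher counts, so these rates do not cover genes at low counts.

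T cell-like cells, 158 in lung and 151 in brain, did differ. Lung samples 1, 3 and 4 with 63, 38 and 49 cells were compared with the 4 brain samples with 14, 19, 88 and 30 cells, and 16 of 1875 genes (0.853%) were called, 13 higher in lung (0.693%) and 3 lower (0.16%). The organs did not overlap for 8.37% of the tested genes, and 9.97% had an unadjusted p under 0.05. With the replicate number as a block 93 genes were called. The 3 lower genes were Cd8a, Cd8b1 and Xcl1. Cd8a (ENSMUSG00000053977, chr6:71373427-71379173, plus strand) codes for the CD8 α chain of cytotoxic T cells. It was at 19.5, 19.4 and 21.0 CPM in lung and at 150.3, 266, 231 and 232 CPM in brain. The 3 lung samples were nearly equal and all brain samples were above them, with a difference of -3.44 ± 0.36 (edgeR adjusted p = 0.000504), from 11 and 97 counts. Cd8b1, the β chain, was at 87.9, 116 and 63.0 CPM in lung and at 279, 172, 410 and 381 CPM in brain (difference -1.87 ± 0.35, edgeR adjusted p = 0.0305). Xcl1, a chemokine that CD8 T cells and NK cells make, was at 19.5, 97.1 and 35.01 CPM in lung and at 150.3, 422, 236 and 344 CPM in brain (difference -2.75 ± 0.50, edgeR adjusted p = 0.0271). Cd4 was at 91.2, 116 and 154 CPM in lung and at 64.4, 0, 33.7 and 46.5 CPM in brain and did not pass (1.71, edgeR adjusted p = 0.2499). The class joined 4 clusters that were filled differently in the organs. The cluster led by Gzmk, Trac, Tox and Cd8b1 held 64 of the 158 lung and 100 of the 151 brain cells. A cluster led by Cxcr6 held 56 and 39 cells, 1 led by Lef1 held 25 and 12, and 1 led by Trbc1 held 13 and 0. The part of this make-up in the differences was not tested.

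Cd8a kept its call in the 11 of 12 other settings that gave it an adjusted p (DESeq2 gave none), while the other 9 named T cell genes each lost theirs in at least 1; with the 5% highest doublet scores of each sample left out 3 genes were called, without brain sample 4 the count was 1 and without lung sample 4 it was 73. Of the genes higher in lung, Il1b (5.05 ± 0.67, edgeR adjusted p = 0.00327), G0s2, Alox5ap, Fcer1g, S100a8, S100a9 and Retnlg are genes of myeloid cells. The 12 neutrophil markers summed to 27310, 63150 and 2570 CPM in the T cell-like cells of lung samples 1, 3 and 4 and to between 1238 and 4218 CPM in those of brain. Their part in these differences was not tested. Gzma, granzyme A, had 88 counts in lung and 2 in brain (edgeR adjusted p = 0.0198). As a share of T cell-like UMIs pooled over samples this was a ratio of 36.2, with an interval from 9.72 to 303 that covers counting error only.

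**Figure D5:**
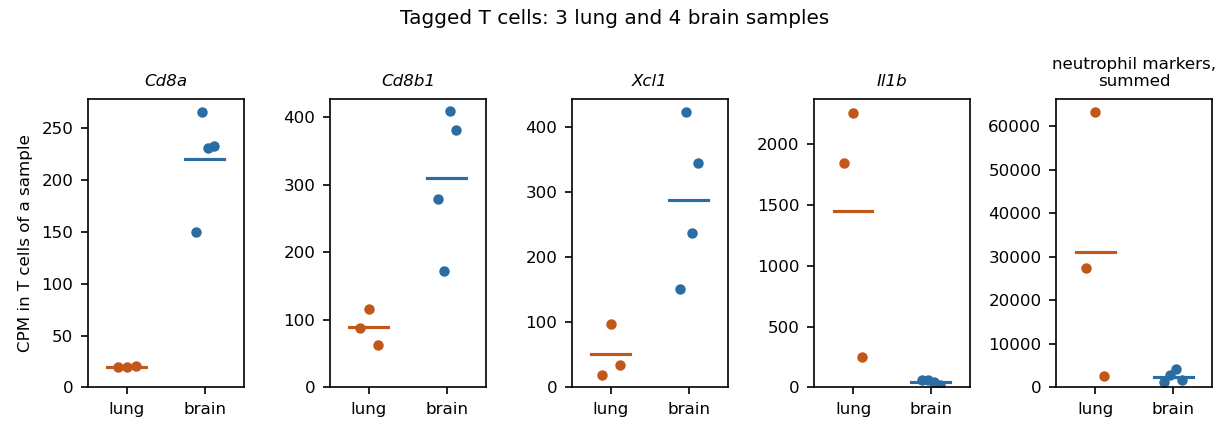
Points give the CPM of counts summed over the T cell-like cells of each sample (linear axes from 0), for 3 tagged lung and 4 tagged brain samples, with bars at the means. Cd8a lies near 20.0 CPM in lung and between 150.3 and 266 CPM in brain, and the summed neutrophil markers at the right are high in lung samples 1 and 3.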

How the data were processed

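Single-cell RNA-seq libraries multiplexed with CellPlex tags were sorted by biotin label. The deposited matrices hold UMI counts per gene and cell for 32285 genes, made with Cell Ranger 6.1.2 per the file headers and mm10 per the submitters' processing notes, and not normalized. Cells were filtered as described above, which removed between 1.27% and 9.03% of tagged barcodes, and counts were summed per sample. The sums were tested with edgeR 4.0.16 (quasi-likelihood, TMM, filter on low counts, Benjamini-Hochberg threshold 0.05), in R 4.3.3; DESeq2 1.42.0 was an alternative. Shares of cells were compared with exact two-sided permutation tests, adjusted over 11 classes. Clusters came from scanpy 1.11.5 (2000 variable genes, 30 components, 15 neighbours, Leiden resolution 1) over the 16 lung and brain samples, and a name needed 5 markers of its list among the 100 leading genes; these limits were set after the data were seen. Doublets were not removed in the main fit; leaving out the top 5% of Scrublet scores per sample was an alternative. A class was tested with at least 10 cells in at least 3 samples of each organ.

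Members, lists and tests were chosen with earlier results of these data known. The genes named were the 12 with the largest and the 12 with the smallest log2 difference among called, non-overlapping genes of at least 50 CPM in the higher organ, up to 4 per direction of each list, and the 5 with the largest and the 5 with the smallest log2 difference among those called within a class and for the difference of differences. Gene positions are those of the GENCODE annotation on GRCm38. Untagged samples of the same number deviated from their group means together (r = 0.19, 0.653, 0.404 and 0.53 across genes), so the fit with the number as a block is given beside that result. On data simulated from the tagged samples over 11158 genes the test recovered 92% of log2 changes of 3 and 12% of changes of 1. Alternatives are a limit of 5% mitochondrial UMIs, equal cell numbers, other scaling, no filter, all 16 samples in the fit, and leaving out each sample. Some genes that the rule selects are not reported here, and they remain in the counts and list medians.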

Additional observations from a re-analysis of the deposited data

Results flagged for a closer look

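Among 124 groups of 4 samples, 17 held a sample that stood far from the other 3 by Dixon's test. For normal and independent values chance gives about 1 in 20. These values are CPM and percentages, and several groups measure related things, so the 17 cannot be set against that rate. In tagged lung, sample 1 was highest in the share of endothelial-like cells (5.986% against 0.8007%, 0.2465% and 0.4425%) and in the summed markers of endothelium (659.7 CPM against at most 136.2), dendritic cells (171.9 CPM against at most 77.01), basophils or mast cells (27.73 CPM against at most 5.585) and neurons (25.6 CPM against at most 4.993). Lung sample 2 was lowest in nonclassical monocyte-like cells, at 0.59% against 2.798%, 3.04% and 3.097%.

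In tagged brain, sample 2 stood apart in genes and cells of macrophages. It was highest in border-associated macrophage markers (7867 CPM against 1653, 621.9 and 650.2), in Ptgds (525.1 CPM), Cp (330.2 CPM) and Ccn1 (497.8 CPM), in alveolar macrophage-like cells (0.7407% against 0 in the others) and in Plet1 (30.38 CPM against at most 3.308). Lung sample 2, which listed the same CellPlex tags, was the highest lung sample in alveolar macrophage-like cells and in Plet1 (959.75 CPM). Whether cells or RNA passed between these samples was not tested. Brain sample 3 was highest in T cell-like cells (28.39%) and T cell markers (960.6 CPM against at most 217.4). Brain sample 4 was highest in choroid plexus markers (502.3 CPM against at most 9.337) and keratin-positive epithelium markers (17.12 CPM against at most 5.418), and brain sample 1 in platelet markers (11.05 CPM against at most 7.991).

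By the edgeR test of the difference itself, 273 genes had a lung-brain difference that was not the same in tagged and untagged cells. The 10 named by the rule are given here. Of these, Fabp1, Fabp4, Gpr34 and Rasgrp3 lost the call in several other settings. On the log2 scale the lung-brain difference was larger in tagged cells by 6.76 for Fabp1, 5.14 for Ear2, 4.28 for Pparg, 3.96 for Fabp4 and 3.88 for Ly75, with adjusted p between 0.0146 and 0.0320. The difference of the differences was -8.05 for Crybb1, -4.87 for Siglech, -4.44 for Rasgrp3, -4.26 for Gpr34 and -4.07 for Abca9, with adjusted p between 0.00392 and 0.0403.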

How the results depend on the processing

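The count of 1067 genes called in tagged cells was 1908 with DESeq2, 1715 with all 16 samples in the fit, 690 with equal cell numbers and 572 with at most 5% mitochondrial UMIs; leaving out 1 sample gave 583 to 1204. With a replicate block it was 1133, of which 875 were among the main 1067, but same-numbered tagged samples did not all deviate together (r = 0.0587, 0.445, 0.306 and 0.164), so the number is not taken as a pairing. The 0 genes of untagged cells became 20 with the replicate block, 440 with DESeq2, 1 with no filter on low counts and 0 to 241 without 1 sample (241 without brain negative 2, 1 without brain negative 4). The 273 genes of the difference of differences became 683 with the block, 865 with DESeq2 and 84 to 600 without 1 sample; the count fell below 150 without lung positive 2 or 3, brain positive 3 or 4, lung negative 1, 3 or 4, or brain negative 1 or 4, and was 600 without brain positive 1. In neutrophil-like cells 0 became 19 with the block, 11 with DESeq2, 103 with no filter and 0 to 4 without 1 sample. In T cell-like cells 16 became 93 with the block, 123 with no filter, 3 without the top 5% of Scrublet scores, 1 with at least 20 cells per sample and 1 to 73 without 1 sample (lung 3 gave 9, lung 4 gave 73, brain 1 and brain 3 gave 2, brain 2 gave 4, brain 4 gave 1). The cause of these moves was not tested.

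The share of B cell-like cells, 0.315 percentage points higher in lung, reversed to -0.595 without lung 4, -0.145 without brain 2 and -0.0196 without brain 3, within a range from -0.595 to 1.17 without 1 sample, and the endothelial-like share (-1.09) to 0.0952 without brain 1, within a range from -2.46 to 0.0952. With cell numbers tested in edgeR, without and with the block, the log2 difference passed for alveolar macrophage-like (7.68 and 8.28), border-associated macrophage-like (-6.20 and -5.85), microglia-like (-10.8 and -9.88) and neutrophil precursor-like cells (-4.78 and -4.50). Of the 24 named genes 23 kept their call in every setting that gave them an adjusted p, and of 70 called pathway members 42 did; Ppbp and Sall1 had none with equal cell numbers and Slco1a4 none without the top Scrublet scores. In simulated data log2 changes of 1 were recovered to 12% over all tagged cells, 47% in neutrophil-like and 45% in T cell-like cells. Only genes with higher counts were changed there.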
